A study of Homo sapiens with 10 samples.

Results

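The genes described here encode the plasma membrane and lysosomal transporters that carry amino acids and a few related solutes, in the solute carrier families SLC1, SLC3, SLC6, SLC7, SLC36, SLC38 and SLC43. They were taken by symbol: every probe set annotated with a single gene whose symbol belongs to these 7 families was collected, and the brightest of a gene's probe sets, by its average over the 10 arrays, stood for the gene. This gave 138 probe sets for 56 genes among the 19775 genes of the table, and 16 of the 56 genes had a mean log2 value of at least 6 over the 10 arrays. Within these families the rule used no comparison of the 2 groups, only means over all 10 arrays. The families themselves were chosen with earlier results of these data known. SLC6A8 (6.08) and SLC38A10 (5.91) lay just inside and just outside the limit of 6.

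The study measured total RNA of extracellular microvesicles and of the K562 cells that release them, on Affymetrix HG-U133 Plus 2.0 arrays. K562 is an established line from human chronic myeloid leukaemia with the BCR-ABL1 fusion and erythroid features, and as a single line it stands for no other leukaemia. There were 5 microvesicle arrays and 5 cell arrays, numbered 1 to 5 in each group for 5 independent experiments, and neither group received a treatment. RNA of both groups was isolated with Trizol and made into biotin-labelled cRNA, and the deposited values are log2 expression values made with the RMA method. The values are relative and carry no measure of total RNA, so less of one transcript cannot be told apart from more of the others.

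Many amino acid transporters of the cell surface work as exchangers or as sodium-coupled carriers. The SLC3A2 protein, the CD98 heavy chain, escorts several SLC7 light chains to the membrane, where they exchange leucine, arginine, cystine and other amino acids, while SLC1A5 and the SLC38 proteins bring in glutamine and small neutral amino acids. When amino acids run short, the kinase GCN2 and the transcription factor ATF4 raise the transcription of many of these transporters, and lysosomal members such as SLC38A9 report amino acids to the kinase complex mTORC1. The families also hold carriers of neurotransmitters, creatine and taurine, and SLC43A3 is known as a purine nucleobase transporter.

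The libraries as a whole differed between the groups. Array medians lay between 4.22 and 4.28 in microvesicles, against 4.08 to 4.12 in cells. The values of an array were spread more narrowly in microvesicles, with an SD over probe sets of 1.94 ± 0.05, against 2.34 ± 0.02 in cells (SD, n = 5 each, exact permutation p = 0.00794). The part of that narrower spread in the changes of bright and dim genes was addressed only by the second quantile normalization and the loess correction given further on. The signal of the ACTB control probe sets at the 3′ end exceeded that at the 5′ end by 3.12 ± 0.34 on the log2 scale in microvesicles and by 2.39 ± 0.15 in cells (SD, n = 5 each, exact permutation test, 2-sided p = 0.00794, the smallest 5 against 5 arrays can give). The same difference for GAPDH was 0.62 ± 0.13 in microvesicles and 0.45 ± 0.06 in cells (exact permutation p = 0.0159). The part of the 3′ to 5′ difference in the results that follow was not tested. Correlations between arrays were 0.925 to 0.955 among microvesicles, 0.992 to 0.998 among cells and 0.870 to 0.925 between the groups. Of 18 erythroid markers 13 were measured, and 11 of them averaged at least 6 in microvesicles and 10 in cells, with linear values summed over the 13 of 6620 to 10200 in microvesicles and 10000 to 14100 in cells. The embryonic globin genes averaged 12.09 in microvesicles and 11.72 in cells for HBE1, and 8.95 in microvesicles and 9.85 in cells for HBZ. Of 9 monocyte and granulocyte markers 0 averaged at least 6 in microvesicles and 1 in cells, and of 11 lymphocyte markers 1 averaged at least 6 in microvesicles and 2 in cells. Of 8 platelet markers 1 averaged at least 6 in microvesicles and 0 in cells, with summed linear values of 263 to 323 in microvesicles and 162 to 179 in cells. Of 11 epithelial and fibroblast markers 5 averaged at least 6 in each group, and KRT18 was the highest of them, with 10.44 in both groups. EPCAM averaged 9.42 in cells and 6.55 in microvesicles, where it was the lowest of the 5. The test called 7 of the 9 monocyte and granulocyte markers (77.8%) and 5 of the 8 platelet markers (62.5%) higher in microvesicles. It also called higher 6 of the 11 epithelial and fibroblast (54.5%), 5 of the 11 lymphocyte (45.5%) and 2 of the 13 erythroid markers (15.4%). Among all genes 35.5% were called higher, and 50.7% of those with a mean under 6. In the same order of lists, 1, 0, 2, 1 and 4 markers were called lower, beside 31.2% of all genes. The part of the marker rises in the rises of dim transporters was not tested.

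Transcripts of the amino acid transporters that K562 cells express were mostly scarcer in microvesicles. Of the 16 genes with a mean of at least 6, 12 fell in microvesicles (75.0%) and 0 rose, and 4 did not pass the test (limma, Benjamini-Hochberg adjusted p under 0.05). All 16 differences were below 0, so an unadjusted threshold also gave 0 rises. The fall was a feature of expressed genes in general: among all 7074 genes with a mean of at least 6, 62.4% fell and 8.09% rose. The median change of the 16 transporters was -1.63 on the log2 scale, against -0.74 for those 7074 genes. In 9 of the 16 genes every microvesicle array lay below every cell array, which is 56.2%, against 54.7% of the 7074 genes, and 0 of the 16 genes lay wholly above, against 6.16%.

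**Figure D1:**
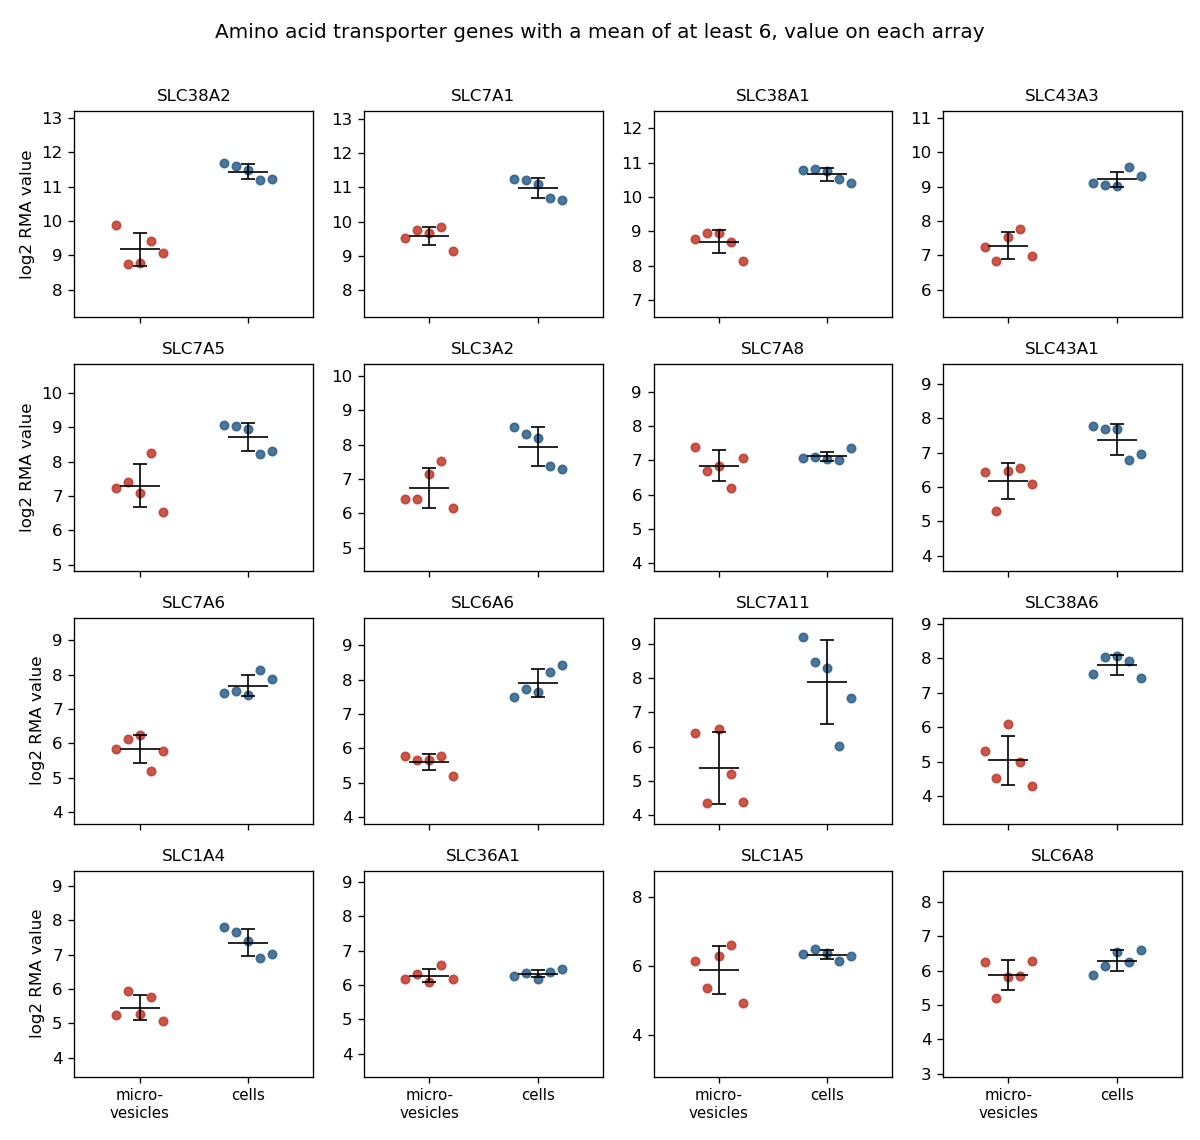
Log2 expression value (vertical axis) of the 16 amino acid transporter genes with a mean of at least 6, 1 panel per gene, on the 5 microvesicle arrays (left in each panel) and the 5 cell arrays (right). Points are arrays and bars give the mean ± SD; SLC38A2, SLC38A1 and SLC6A6 show groups far apart, while SLC36A1 and SLC7A8 show groups that overlap.

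The sodium-coupled transporters of small neutral amino acids and glutamine in family SLC38 had some of the largest differences. SLC38A2, which takes up alanine, glutamine and other neutral amino acids and is induced when they run short, read 9.88, 8.74, 8.78, 9.43 and 9.07 in microvesicles, against 11.69, 11.60, 11.50, 11.21 and 11.23 in cells. The groups were more than 1 log2 unit apart. SLC38A2 fell by 2.27 ± 0.22 on the log2 scale (SE, limma adjusted p = 3.47e-06), a 4.81-fold difference, and 0 of the 276 genes whose mean lay within 0.25 of its own fell by more. SLC38A1, the related glutamine carrier, read 8.78, 8.96, 8.96, 8.68 and 8.14 in microvesicles, against 10.79, 10.82, 10.76, 10.52 and 10.41 in cells. These groups did not overlap either, and SLC38A1 fell by 1.96 ± 0.19 (adjusted p = 2.67e-06), further than all but 2 of the 362 genes of like level, and the average of its 4 probe sets gave -0.76 (adjusted p = 0.000541). SLC38A6, a less studied member of the family, read 5.30, 4.53, 6.08, 4.99 and 4.28 in microvesicles, against 7.56, 8.04, 8.08, 7.93 and 7.43 in cells, and fell by 2.77 ± 0.29 (adjusted p = 6.33e-06). It had the largest change among the 16 genes, and its groups were separate.

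The CD98 heavy chain and 3 of its 4 expressed light chains fell as well, though SLC3A2 and SLC7A5 did not pass after either correction for the spread of the arrays (second quantile normalization: -0.31, adjusted p = 0.45, and -0.59, adjusted p = 0.135; loess values further on). The heavy chain SLC3A2 read 6.41, 6.40, 7.13, 7.53 and 6.16 in microvesicles, against 8.52, 8.31, 8.19, 7.39 and 7.29 in cells. Microvesicle array 4 overlapped the cells' range, as it lay above cell arrays 4 and 5, and SLC3A2 fell by 1.21 ± 0.31 (adjusted p = 0.00393), while 40.3% of genes of like level had a lower change. SLC7A5, its leucine-exchanging light chain, read 7.24, 7.42, 7.07, 8.24 and 6.52 in microvesicles, against 9.08, 9.02, 8.95, 8.23 and 8.31 in cells. Again only microvesicle array 4 reached the cells' range, and SLC7A5 fell by 1.42 ± 0.29 (adjusted p = 0.000937), while 27.5% of genes of like level had a lower change. SLC7A6, a light chain that exchanges arginine for neutral amino acids, read 5.83, 6.14, 6.26, 5.19 and 5.77 in microvesicles, against 7.48, 7.53, 7.42, 8.14 and 7.87 in cells. Its groups did not overlap, and it fell by 1.85 ± 0.22 (adjusted p = 1.57e-05). SLC7A11, the cystine and glutamate exchanger that supplies cysteine for glutathione, read 6.40, 4.36, 6.51, 5.21 and 4.39 in microvesicles, against 9.19, 8.46, 8.29, 6.01 and 7.42 in cells. It was the most variable member, with an SD of 1.05 in microvesicles and 1.22 in cells. Cell array 4 lay within the microvesicles' range, and SLC7A11 fell by 2.50 ± 0.57 (adjusted p = 0.002). SLC7A8, another CD98 light chain, averaged 6.83 ± 0.45 in microvesicles and 7.11 ± 0.14 in cells (SD, n = 5 each), and its difference of -0.28 ± 0.21 did not pass (adjusted p = 0.246).

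The ratio of a light chain to the heavy chain on each array showed no difference past the threshold. The log2 ratio of SLC7A5 to SLC3A2 was 0.57 ± 0.42 in microvesicles and 0.78 ± 0.17 in cells (SD, n = 5 each), a difference of -0.21 ± 0.20 (SE, exact permutation p = 0.349). For SLC7A11 to SLC3A2 the difference of the log2 ratio was -1.29 ± 0.56 (exact permutation p = 0.0556), for SLC7A6 to SLC3A2 it was -0.64 ± 0.53 (exact permutation p = 0.278), and for SLC7A8 to SLC3A2 it was 0.94 ± 0.52 (exact permutation p = 0.119). Together with 3 pairs within other families, 7 ratios were tested, and none passed after Benjamini-Hochberg adjustment over the 7, where the lowest adjusted p was 0.0556 for SLC1A4 to SLC1A5. The smallest exact permutation p of this design, 0.00794, adjusts to 0.0556 when only 1 of the 7 ratios reaches it. The adjusted test could therefore not pass a single differing ratio, and it does not decide for SLC1A4 to SLC1A5.

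Of the other expressed carriers of cationic and neutral amino acids, SLC7A1, the main arginine and lysine carrier of many cells, read 9.51, 9.74, 9.66, 9.84 and 9.15 in microvesicles, against 11.24, 11.21, 11.10, 10.70 and 10.62 in cells. The groups did not overlap, and SLC7A1 fell by 1.39 ± 0.19 (adjusted p = 4.47e-05), but with all its probe sets averaged the change was -0.26 (adjusted p = 0.123). SLC43A1, a carrier of large neutral amino acids, read 6.43, 5.30, 6.47, 6.56 and 6.09 in microvesicles, against 7.77, 7.69, 7.68, 6.80 and 6.98 in cells, and fell by 1.22 ± 0.27 (adjusted p = 0.00179), but by 0.39 after a second quantile normalization (adjusted p = 0.302). Its groups were separated by a narrow gap, between microvesicle array 4 and cell array 4. SLC43A3, the nucleobase carrier, read 7.25, 6.82, 7.55, 7.77 and 6.99 in microvesicles, against 9.11, 9.05, 9.03, 9.56 and 9.30 in cells. Its groups were more than 1 log2 unit apart, and it fell by 1.93 ± 0.20 (adjusted p = 5.67e-06).

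In family SLC1 the related neutral amino acid exchangers differed in outcome. SLC1A4, which exchanges alanine, serine and cysteine, read 5.23, 5.93, 5.28, 5.76 and 5.08 in microvesicles, against 7.82, 7.66, 7.39, 6.90 and 7.01 in cells, and fell by 1.90 ± 0.23 (adjusted p = 1.69e-05) with no overlap. SLC1A5, which also carries glutamine, read 6.15, 5.37, 6.29, 6.62 and 4.93 in microvesicles, against 6.35, 6.49, 6.37, 6.15 and 6.28 in cells. The microvesicle arrays spread on both sides of the cells, and the difference of -0.46 ± 0.28 did not pass (adjusted p = 0.155), though it did without microvesicle array 4 (-0.64, adjusted p = 0.0424). The log2 ratio of SLC1A4 to SLC1A5 was -0.42 ± 0.72 in microvesicles and 1.03 ± 0.31 in cells (SD, n = 5 each). The difference of -1.44 ± 0.35 (SE) had an exact permutation p of 0.00794, the smallest this design allows, and an adjusted p of 0.0556 over the 7 ratios. A lone ratio at that p could not pass, so the adjusted value does not decide whether this ratio differed.

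The carriers of taurine and creatine and the lysosomal SLC36A1 completed the expressed genes. SLC6A6, the taurine transporter, read 5.77, 5.67, 5.65, 5.76 and 5.18 in microvesicles, against 7.49, 7.72, 7.64, 8.22 and 8.43 in cells. The groups were well apart and SLC6A6 fell by 2.29 ± 0.21 (adjusted p = 1.9e-06), yet of its 5 probe sets 2 rose and 1 fell, and their average gave 0.13 (adjusted p = 0.424). SLC6A8, the creatine transporter, averaged 5.88 ± 0.43 in microvesicles and 6.29 ± 0.30 in cells, and its difference of -0.41 ± 0.22 did not pass (adjusted p = 0.118). It passed with each array centred on its median (-0.57, adjusted p = 0.0425) and with its probe sets averaged (-0.85, adjusted p = 0.00314). A further 3 probe sets shared by SLC6A8 and a pseudogene copy were left out, and they differed by 0.056, 1.36 and 1.08. SLC36A1, a proton-coupled carrier of small amino acids, averaged 6.27 ± 0.19 in microvesicles and 6.33 ± 0.10 in cells, a difference of -0.06 ± 0.15 (adjusted p = 0.75).

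**Figure D2:**
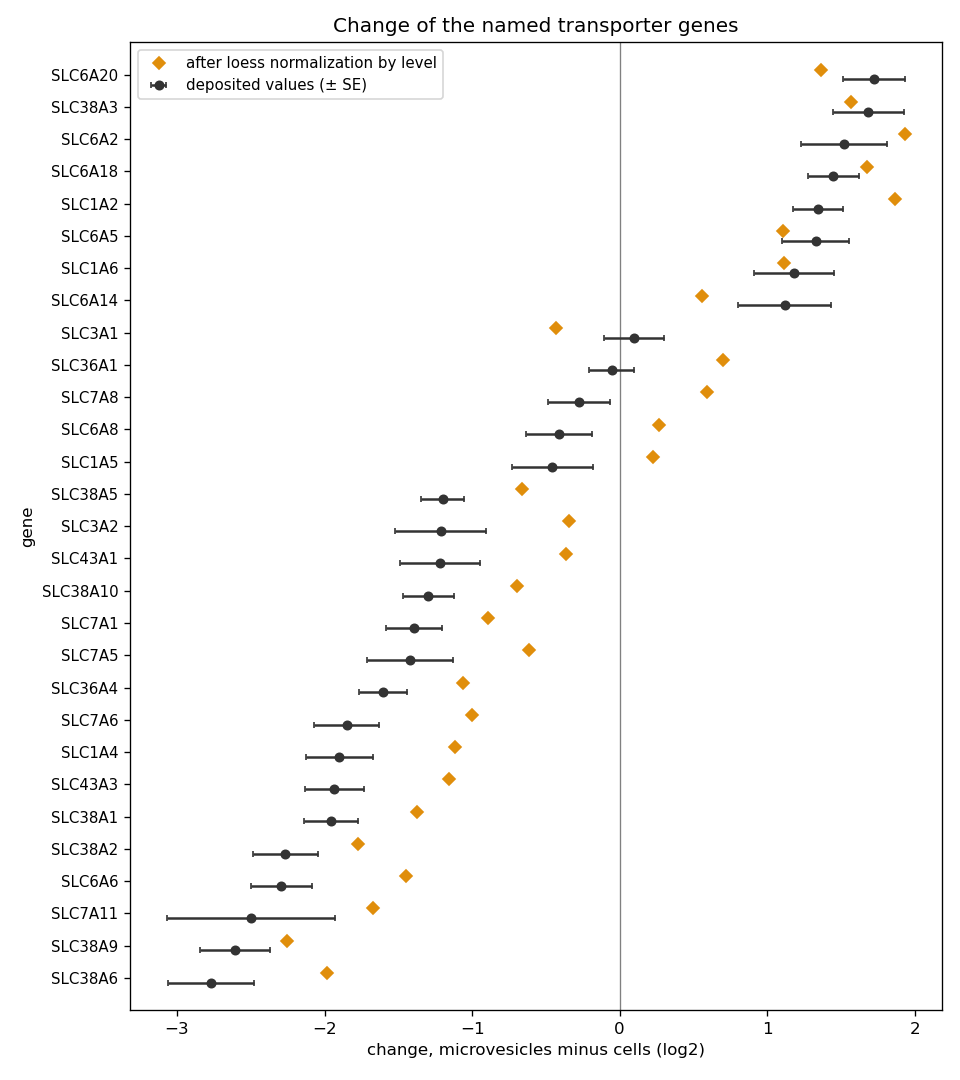
Change of 29 named transporter genes (rows) in log2 units, microvesicles minus cells (horizontal axis), from the deposited values with bars of ± 1 SE and after a loess correction by expression level. Genes with a mean of at least 6 lie at or left of 0 in the deposited values, with SLC38A6 at -2.77, and most of the named dim genes lie right of 0, with SLC6A20 at 1.72.

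Of the 40 dimmer transporters 25 rose in microvesicles (62.5%), 5 fell (12.5%) and 10 did not pass, beside 50.7% rises and 13.8% falls among all 12701 genes with a mean under 6. Their median change was 0.63, against 0.53 for those genes. In 18 of the 40 genes every microvesicle array lay above every cell array (45.0%), against 33.6% of the 12701 genes. No detection call came with the values, so whether these probe sets measured their transcript in either group cannot be told from them.

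The dim genes that rose furthest encode carriers best known from brain, kidney, gut or liver. SLC6A20, an imino acid carrier, averaged 4.61 ± 0.47 in microvesicles and 2.89 ± 0.13 in cells, a change of 1.72 ± 0.21 (adjusted p = 2.06e-05). SLC38A3, a glutamine carrier of liver and brain, averaged 5.42 ± 0.54 in microvesicles and 3.73 ± 0.21 in cells (change 1.69 ± 0.24, adjusted p = 6.28e-05). Rises of 1.52 for the noradrenaline transporter SLC6A2, 1.45 for SLC6A18, 1.35 for the glial glutamate transporter SLC1A2, 1.33 for the glycine transporter SLC6A5, 1.18 for the glutamate transporter SLC1A6 and 1.12 for SLC6A14 also passed. With probe sets averaged, SLC6A20 changed by 1.01, SLC6A2 by 0.81, SLC1A2 by 0.84, SLC1A6 by 1.13 and SLC6A5 by 1.43, and all of these passed. The second probe set of SLC6A20 did not pass by itself (0.30, adjusted p = 0.149). Nor did a probe set of SLC1A2 (0.11, adjusted p = 0.579). Probe sets of SLC6A2 at 0.65, 0.41 and 0.39 did not pass either (adjusted p = 0.0713, 0.0947 and 0.228). The remaining probe sets of SLC1A2 and SLC6A2 rose. For SLC1A2 the chosen probe set averaged 5.76 over the 10 arrays, and its others averaged 2.02 to 3.35. SLC38A3, SLC6A18 and SLC6A14 had 1 probe set each. In all 8 of these genes the microvesicle arrays lay above every cell array, as the rule for naming them required. The other 17 rises ran from 0.40 to 1.08 and included the serotonin transporter SLC6A4 (1.01) and the dopamine transporter SLC6A3 (0.70), and the 10 dim genes that did not pass differed by -0.58 to 0.43. SLC3A1, the heavy chain that pairs with SLC7A9 in kidney, averaged 2.99 ± 0.39 in microvesicles and 2.89 ± 0.24 in cells and did not pass (adjusted p = 0.682).

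The 5 dim genes that fell included the lysosomal arginine sensor. SLC38A9, which signals arginine to mTORC1, read 4.60, 3.41, 4.33, 4.66 and 3.81 in microvesicles, against 6.93, 6.94, 6.88, 6.58 and 6.51 in cells. The groups were more than 1 log2 unit apart and SLC38A9 fell by 2.61 ± 0.24 (adjusted p = 1.98e-06). Its microvesicle values lay around the median of those arrays, so how far they stood above background is not known. SLC36A4, a carrier of proline and tryptophan, averaged 4.99 ± 0.25 in microvesicles and 6.60 ± 0.13 in cells (change -1.61, adjusted p = 4.32e-06). SLC38A5, which carries glutamine and asparagine, averaged 5.18 ± 0.14 in microvesicles and 6.38 ± 0.15 in cells (change -1.20, adjusted p = 2.15e-05). SLC38A10 averaged 5.26 ± 0.26 in microvesicles and 6.56 ± 0.21 in cells (change -1.30, adjusted p = 3.81e-05), but 2 of its 7 probe sets rose and 2 fell, and their average changed by -0.015 (adjusted p = 0.925). The last, SLC6A16, changed by -0.60. In the first 4 of these genes the cells averaged more than 6.

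Counted together, 25 of the 56 transporters rose (44.6%) and 17 fell (30.4%), beside 35.5% and 31.2% of all 19775 genes, and their groups lay apart upward in 32.1% and downward in 25.0%, beside 23.8% and 26.1% of all genes. A change of at least 2-fold was found in 12 of the rises and 16 of the falls, beside 2221 rises and 3921 falls among all 19775 genes. By family, 6 of 11 SLC38 genes fell and 3 rose, 2 of 3 SLC43 genes fell and 0 rose, 13 of 18 SLC6 genes rose and 2 fell, 6 of 13 SLC7 genes rose and 4 fell, and 3 of 7 SLC1 genes rose and 1 fell. In SLC3 and SLC36, 1 of 2 genes fell and 0 rose. The families differ in level, and of the SLC6 genes only SLC6A6 and SLC6A8 had a mean of at least 6. Among all genes with a mean under 6, 50.7% rose and 13.8% fell. Among those with a mean of at least 6, 8.09% rose and 62.4% fell. Whether the family counts differ beyond level was not tested. Where a member had several probe sets, as 36 did, 4 (11.1%) had some that rose and some that fell, against 13.5% of the 10523 genes with several. These were SLC38A1, with 1 of 4 rising and 3 falling, SLC38A7, SLC38A10 and SLC6A6.

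The direction of change ran with the level of a gene across the whole table, as the plot of change against level shows. The median change of all genes was 0.63 at means under 3, 0.61 between 3 and 4, 0.53 between 4 and 5, -0.07 between 5 and 6, -0.84 between 6 and 7, -0.98 between 7 and 8, -0.81 between 8 and 9 and -0.51 between 9 and 11. A loess curve of each array against the mean of all arrays was therefore subtracted as an alternative. After it, 9 of the 16 expressed transporters fell and 2 rose, beside 28.2% and 26.3% of all genes with a mean of at least 6, and their median change was -0.95, against -0.04 for all such genes. SLC38A2 (-1.77), SLC38A1 (-1.37), SLC38A6 (-1.98), SLC6A6 (-1.45), SLC43A3 (-1.16), SLC1A4 (-1.12), SLC7A6 (-1.0), SLC7A11 (-1.67) and SLC7A1 (-0.89) remained past the threshold. SLC7A5 (-0.61, adjusted p = 0.116), SLC3A2 (-0.35, adjusted p = 0.383) and SLC43A1 (-0.36, adjusted p = 0.263) did not, and SLC7A8 (0.59, adjusted p = 0.0234) and SLC36A1 (0.70, adjusted p = 0.00298) passed as higher. Of the 40 dim genes 16 then rose and 5 fell, beside 25.8% and 13.5% of all genes with a mean under 6, with a median change of 0.43, against 0.20 for those genes. SLC6A14 no longer passed (0.56, adjusted p = 0.154).

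**Figure D3:**
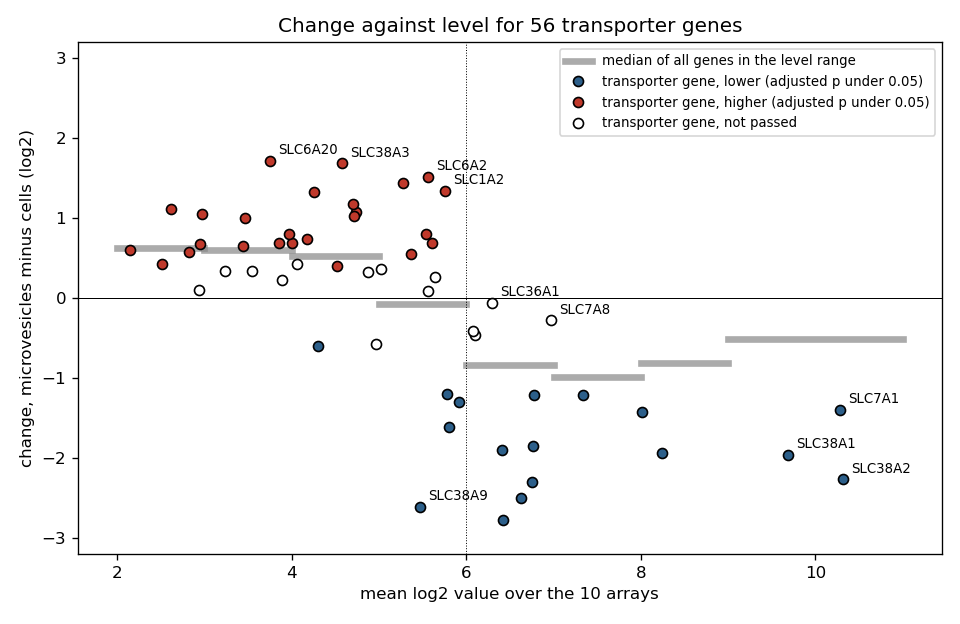
Change in log2 units, microvesicles minus cells (vertical axis), against the mean log2 value over the 10 arrays (horizontal axis) for the 56 transporters, with the median of all genes in each level bin as a line. The all-gene medians go from 0.63 at the lowest levels to -0.98 at levels of 7 to 8, and SLC38A2 and SLC38A6 lie far below them.

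The cell arrays were not uniform for these genes. Cell arrays 4 and 5, singled out after their values were seen, were the lowest pair of the 5 in 9 of the 16 expressed transporters (56.2%), namely SLC38A2, SLC7A1, SLC38A1, SLC7A5, SLC3A2, SLC43A1, SLC7A11, SLC1A4 and SLC1A5, against 24.7% of all genes with a mean of at least 6. They were the highest pair in 4 of the 16 (25.0%), SLC43A3, SLC7A6, SLC6A6 and SLC36A1, against 22.1%. Among the 40 dim transporters the shares were 7.5% lowest and 17.5% highest, beside 11.2% and 17.1% of all genes with a mean under 6. Of the 30 genes of the amino acid deprivation list described further on, cell arrays 4 and 5 were the lowest pair in 24 (80.0%), with STC2, a secreted glycoprotein induced by ATF4, reading 7.88, 7.77, 7.65, 5.92 and 6.39 in the 5 cell arrays. Without these 2 arrays 12 of the 16 expressed transporters still fell, and of the 56 genes 18 rose and 17 fell. Where the 2 arrays were the lowest pair, leaving them out raised the cell mean, so the differences of those 9 transporters could only grow. The labels name no difference between the cell arrays, and values without both stand with the lists where they moved a count of calls.

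**Figure D4:**
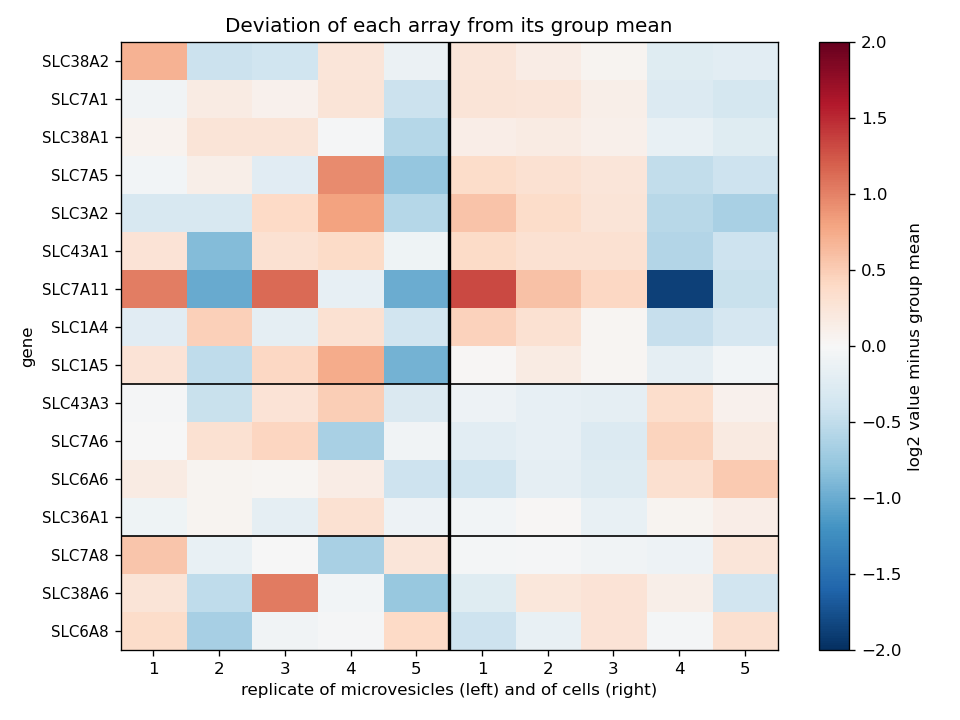
Difference of each array from the mean of its own group in log2 units (colour, from -2 to 2) for the 16 expressed transporters (rows), with the 5 microvesicle arrays on the left and the 5 cell arrays on the right. Rows are grouped by whether cell arrays 4 and 5 were the lowest pair of the cells (9 genes), the highest pair (4 genes) or neither.

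The promoters of these genes are shown because 9 of the genes were low together on cell arrays 4 and 5. The motif was chosen after that pattern was seen, so its matches support no link to it. RefSeq promoter windows (GRCh38.p14, 250 bases before to 50 after each start) were in the table used here for 42 of the 56 transporters and 13 of the 16 expressed ones, and were searched on both strands for TGATGNAA, the core of the element bound by ATF4 with C/EBP partners. Genes can have several starts, each with its window. By window, a match was found in 6 of the 64 windows of the 42 genes (9.38%) and in 5 of the 24 windows of the 13 expressed genes (20.8%), against 3.62% of all 35116 windows. By gene these were 14.3% and 38.5%, against 4.46% of all 27305 genes, which have fewer windows each. The sixth match was in SLC1A3, a dim glutamate transporter gene. A match is a description of the letters and says nothing of binding, and no match says only that the letters are not in the window. The 5 windows follow, each 5′ to 3′ along the gene's own strand, with the match in capitals and up to 26 bases on each side. SLC7A1 had 1 window; SLC1A4 and SLC38A1 had 2 and SLC1A5 and SLC3A2 had 3, of which only the one furthest downstream held a match, and positions are counted from that window's start site. SLC1A4 lies at chr2:64989366-64989425 on the plus strand, with the match on the opposite strand starting at base -7 from the transcription start. SLC1A5 lies at chr19:46784878-46784937 on the minus strand, with the match at base -97. SLC38A1 lies at chr12:46266487-46266546 on the minus strand, with the match at base -4. SLC3A2 lies at chr11:62881710-62881748 on the plus strand, with the match on the opposite strand at base 38, where the window ends early. SLC7A1 lies at chr13:29595648-29595707 on the minus strand, with the match at base 8.
SLC1A4: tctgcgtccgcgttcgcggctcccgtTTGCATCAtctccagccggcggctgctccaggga
SLC1A5: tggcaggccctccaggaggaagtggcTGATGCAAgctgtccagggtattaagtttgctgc
SLC38A1: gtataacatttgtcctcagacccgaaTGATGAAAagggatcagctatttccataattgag
SLC3A2: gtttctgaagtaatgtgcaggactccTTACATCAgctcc
SLC7A1: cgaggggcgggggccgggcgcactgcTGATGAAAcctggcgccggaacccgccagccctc

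The pathways around the transporters were read from fixed lists. The deprivation list held ATF4, its partners and its targets, and also EIF2AK4 (the GCN2 gene), GCN1, IMPACT, EIF2S1 and ATF2. Of its 30 genes 5 rose (16.7%) and 9 fell (30.0%), beside 35.5% and 31.2% of all genes. The median change was -0.11, against 0.20 for all genes. EIF2AK4, GCN1, EIF2S1 and ATF2 were among the falls, and IMPACT did not pass. Of the list's 25 genes with a mean of at least 6, 8 fell and 3 rose, beside 62.4% and 8.09% of all such genes. The transcription factors DDIT3, ATF5 and CEBPG rose by 1.26, 1.01 and 0.74, NUPR1 and VLDLR rose too, and ALDH18A1 of proline synthesis, STC2 and the mitochondrial folate enzyme ALDH1L2 fell by 2.20, 2.16 and 1.70. ATF4 itself averaged 11.42 ± 0.27 in microvesicles and 11.34 ± 0.35 in cells (adjusted p = 0.738), and the asparagine synthetase gene ASNS averaged 9.63 ± 0.43 in microvesicles and 10.12 ± 0.96 in cells (adjusted p = 0.267). After the loess correction 10 rose (33.3%) and 5 fell (16.7%), beside 26.0% and 18.8% of all genes, and without cell arrays 4 and 5, 1 rose and 14 fell. Those 2 arrays were the lowest pair in 24 of the 30 genes, so leaving them out raised the cell mean of these 24. The move toward falls thus followed in part from the choice of arrays.

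In the list of amino acid sensing by mTORC1, which SLC38A9 feeds, 15 of 36 measured genes fell (41.7%) and 5 rose (13.9%), beside 31.2% and 35.5% of all genes, with a median of -0.39. Of its 22 genes with a mean of at least 6, 11 fell and 2 rose, beside 62.4% and 8.09% of all such genes. FNIP1, a partner of the folliculin complex, fell by 2.81, the leucine sensor SESN1 by 1.72 and the methionine sensor SAMTOR by 1.67. The arginine sensor relative CASTOR2 rose by 2.31 (7.99 ± 0.52 in microvesicles, 5.68 ± 0.21 in cells, adjusted p = 4.13e-06), NPRL3 of the GATOR1 complex by 1.18 and the mTOR subunit MLST8 by 0.67, and SESN3 and DEPDC5 rose as well. After the loess correction the split was 8 falls (22.2%) and 11 rises (30.6%), beside 18.8% and 26.0% of all genes, with a median of -0.02. Without cell arrays 4 and 5, 3 rose.

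Among partners and regulators of the transporters, 16 of 21 measured genes fell (76.2%), only CKM rose, and the median was -1.10. Of its 16 genes with a mean of at least 6, 14 fell (87.5%), beside 62.4% of all such genes. The falls were led by ARRDC3, an arrestin-like adaptor for ubiquitin ligases, with 4.01 ± 0.63 in microvesicles and 7.55 ± 0.52 in cells (change -3.54, adjusted p = 1.48e-06), by ARL6IP5, which binds the glutamate transporter SLC1A1 protein (-2.68), and by BSG, a membrane chaperone (-2.22). After the loess correction 8 fell (38.1%) and 2 rose (9.52%), beside 18.8% and 26.0% of all genes, with a median of -0.35, and without cell arrays 4 and 5, CKM did not pass. Of 24 other amino acid and peptide transporters 9 fell (37.5%) and 8 rose (33.3%), close to the 31.2% and 35.5% of all genes, with a median of 0.07. The mitochondrial serine carrier family gene SFXN3 fell by 2.77, the aromatic amino acid carrier SLC16A10 by 2.09 and the lysosomal histidine and peptide carrier SLC15A4 by 1.57. The lysosomal cationic amino acid exporter SLC66A1 rose by 1.53, the vesicular glutamate transporter SLC17A7 by 0.89 and the lysosomal cysteine carrier MFSD12 by 0.84.

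The transporters varied more among microvesicle arrays than among cell arrays, with a median SD over the 56 genes of 0.434 in microvesicles and 0.177 in cells, as did all genes (0.454 in microvesicles and 0.147 in cells).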

How the data were processed

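The authors deposited 1 log2 value per probe set and array, computed with RMA, per the submitters' processing notes. Not given in the sources used here are the RMA version, its settings and whether all arrays were normalized together. The table holds 54630 probe sets, 41091 of them with 1 gene by the platform annotation, and gave 19775 genes, each as its probe set with the highest mean over the 10 arrays. Probe sets annotated with no gene or with more than 1 did not enter. Microvesicles were compared with cells on all genes with limma 3.58.1 in R 4.3.3 (lmFit and eBayes, 2-sided), Benjamini-Hochberg adjusted over all 19775 genes, with a threshold of 0.05. Changes are microvesicles minus cells. Ratios were tested by exact permutation (scipy 1.17.1). The fit was tested on simulated data. The labels give 5 independent experiments but do not say that arrays with the same number share a culture. The p-values measure only the spread between these preparations of a single line. Same-numbered arrays correlated in their deviations by 0.0539, -0.0281, 0.123, 0.12 and 0.0882 for numbers 1 to 5, mostly above 0. Arrays with different numbers gave -0.107 to 0.116. These values do not settle whether the numbers pair the samples, so the replicate block was run only as an alternative. For arrays, their number limits the precision, and no detection call came with the values.

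The members and lists were chosen with earlier results of these data known. Named were all members with a mean of at least 6, up to 8 dimmer members per direction that passed with a change of at least 1 and groups apart, the CD98 partners, and up to 3 rises and 3 falls per list with a group mean of at least 6. KRT18, EPCAM, SLC6A16, SLC6A3, SLC6A4, SLC38A7, SLC1A3, ATF4, ASNS, NUPR1, VLDLR, SESN3, DEPDC5 and CKM were added after their values were seen. Alternatives were the replicate block, median centring, a second quantile normalization, loess by level (span 0.3), genes with a mean of at least 5, averaged or single probe sets, limma's trend with robust fit, array weights and leaving out arrays.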

Additional observations from a re-analysis of the deposited data

Results flagged for a closer look

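In 5 of the 58 groups of 5 arrays tested, 1 array lay far from the others relative to the range of its group, and chance alone flags about 1 in 20 groups. SLC7A8 read 7.35 in cell array 5, with the nearest other cell array at 7.08. SLC6A6 read 5.18 in microvesicle array 5, with the nearest other at 5.65. SLC1A2 read 6.97 in microvesicle array 2, with the nearest other at 6.38, and SLC1A6 read 6.44 in microvesicle array 4, with the nearest other at 5.15. SLC6A14 read 2.26 in cell array 3, with the nearest other at 2.05.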

How the results depend on the processing

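The count of 12 falls among the 16 expressed transporters was 9 to 13 under the alternatives run, while the second quantile normalization and the loess correction each added 2 rises where there were 0. Keeping genes with a mean of at least 5, which tests fewer genes, left 6 rises among the members. Whether the numbers of the arrays pair them is not known. With the replicate block 23 members rose and 18 fell, and 12 expressed members fell. In the mTORC1 list, rises were 11 and falls 8 after either correction, rises were 3 without cell arrays 4 and 5, and 5 to 8 with 1 array left out. In the deprivation list, rises were 9 and falls 3 after quantile normalization, rises 10 and falls 5 after loess, rises 3 at a mean of at least 5, 2 with array weights, and 1 rise with 14 falls without cell arrays 4 and 5. Other transporters had 3 rises at a mean of at least 5, and 3 and 4 falls after quantile and loess. Partners had 8 falls and 2 rises after either correction, 2 rises with averaged probe sets, 0 rises when centred, at a mean of at least 5 or without cell arrays 4 and 5, and 0 to 2 with 1 array left out. Signs turned for SLC7A8 (0.59 after quantile and loess, 0.19 averaged), SLC6A6 (0.13 averaged), SLC36A1 (0.69, 0.70, 0.28 averaged, and 0.0051 without cell arrays 4 and 5), SLC1A5 (0.17 and 0.23), SLC6A8 (0.22 and 0.26) and SLC3A1 (-0.061 centred, -0.33 and -0.43 after quantile and loess, -0.041 with array weights, -0.024 without cell arrays 4 and 5, and -0.036 to 0.22 with 1 array left out). The cause was not tested. Centring moved the median change of all genes from 0.20 to 0.04. With no detection call, low signals set a limit that these values cannot resolve.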
